A study of Thermothelomyces thermophilus with 18 samples.

Results

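The genes of 4 carbon-source regulators were followed across all 18 libraries of the study: cre-1 (Mycth_2310085), xyr-1 (Mycth_2310145), clr-2 (Mycth_38704) and res-1 (Mycth_2302052). They were set by their gene identifiers, with earlier results of these data known, and they are 4 of the 9109 genes in the table. All 4 had enough reads to be tested, with 54 to 15339 counts per library.

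The study asked what the zinc-finger protein MtTRC-1 does in Myceliophthora thermophila (Thermothelomyces thermophilus), a thermophilic fungus that degrades plant cell walls. RNA was sequenced from mycelia of the deletion strain ΔMttrc-1 and of its parent MtWT (strain ATCC 42464). Cultures of both strains started in Vogel's salts with 2% glucose, where they stayed for 16 h at a temperature of 45 °C. The washed mycelia then spent 6 h or 4 h in medium with 2% Avicel, a microcrystalline cellulose, or 4 h in medium with 2% starch. The 6 groups were therefore ΔMttrc-1 on Avicel at 6 h, ΔMttrc-1 on Avicel at 4 h, ΔMttrc-1 on starch at 4 h, and MtWT in the same 3 conditions, with 3 libraries each. No starch library was taken at 6 h, so carbon source and time can be separated only at 4 h. The mutant was made with CRISPR-Cas9 and a neomycin resistance cassette, which MtWT does not carry, and the number of transformants behind the libraries is not given in the sources used here. Reads of the deleted Mttrc-1 gene were not analysed here, and the strain labels therefore have no check on that gene.

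Filamentous fungi switch on the genes for cellulases and xylanases when a polymer is the carbon source and hold them down when a preferred sugar is present. CRE-1 is the zinc-finger repressor of carbon catabolite repression, which keeps such enzyme genes low on glucose. XYR-1 (XLR-1 in Neurospora crassa) is the zinc-cluster activator of xylanase genes and of pentose use. CLR-2 is a zinc-cluster activator that in N. crassa is needed for the cellulase genes and is itself induced by cellulose. RES-1 is known from N. crassa as a transcription factor of the endoplasmic reticulum (ER) stress response, which adjusts protein folding to the load of secreted enzymes.

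Libraries held 17250057 to 24387079 counts, and replicates correlated at 0.98723 to 0.99824 (log2 CPM). Levels are given in CPM, counts scaled to the library's size, after TMM scaling, the edgeR method that corrects for a few very abundant transcripts taking a large share of reads. Its factors ran from 0.77691 to 1.2283 and were lowest in the Avicel 4 h libraries of both strains. MtWT Avicel 4 h replicate 3 stood furthest from its group, with a mean absolute deviation of 0.155 on the log2 scale against 0.032 to 0.0827 in the other libraries. A gene was called when its Benjamini-Hochberg adjusted p over 8573 tested genes was below 0.05 in edgeR's quasi-likelihood test and its log2 fold change was beyond 1 in either direction. In bulk RNA a lower level per cell and fewer expressing cells cannot be told apart.

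On Avicel at 6 h the deletion strain held more mRNA of xyr-1 and clr-2 than MtWT, and both genes were called higher. cre-1 was also above MtWT, just under the fold threshold, and res-1 overlapped between the strains with TMM scaling. In the same libraries 9 of 15 cellulose-degradation genes were called lower, where 12.9% of all tested genes were.

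The gene xyr-1 measured 213.8, 221.3 and 222.2 CPM in the 3 ΔMttrc-1 libraries on Avicel at 6 h, against 66.2, 65.9 and 65.7 CPM in MtWT. All 3 mutant libraries lay above all 3 MtWT libraries, and xyr-1 rose by 1.73 on the log2 scale (SE 0.072, 3.32-fold, edgeR adjusted p = 5.12e-17). Only 2.34% of the tested genes had a larger log2 fold change.

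The activator gene clr-2 measured 99.8, 98.2 and 99.8 CPM in ΔMttrc-1 at 6 h, against 40.2, 35.9 and 37.9 CPM in MtWT. The groups did not overlap, and clr-2 rose by 1.39 on the log2 scale (SE 0.10, 2.61-fold, edgeR adjusted p = 1.65e-11).

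The repressor gene cre-1 measured 548.4, 542.0 and 531.3 CPM in ΔMttrc-1 at 6 h, against 302.3, 260.4 and 302.4 CPM in MtWT. Its log2 fold change of 0.91 (SE 0.075, 1.87-fold, edgeR adjusted p = 5.51e-10) passed the adjusted p but not the fold threshold. With library totals in place of TMM scaling it was 1.26 and passed both.

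The ER stress regulator gene res-1 measured 93.0, 89.1 and 92.7 CPM in ΔMttrc-1 at 6 h, against 107.2, 90.8 and 104.7 CPM in MtWT. The ranges overlapped, and the log2 fold change of -0.14 (95% interval -0.29 to 0.0097) did not pass the test (edgeR adjusted p = 0.0851). With library totals the sign turned, to 0.22 (edgeR adjusted p = 0.00982). By RPKM, counts scaled to gene length and library size, the ranges did not overlap. They were 51.8 to 54.3 in ΔMttrc-1 and 40.9 to 48.9 in MtWT.

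Thus 2 of the 4 genes were called higher, where 8.55% of all tested genes were, and 3 of the 4 had an adjusted p below 0.05, where 74.3% of all tested genes did. Scaling matters in this comparison: the median log2 fold change of all tested genes was 0.0072 with TMM and 0.36 with library totals. With library totals 18% of the tested genes were called higher and 8.21% lower, and 3 of the 4 regulator genes were called higher.

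**Figure D1:**
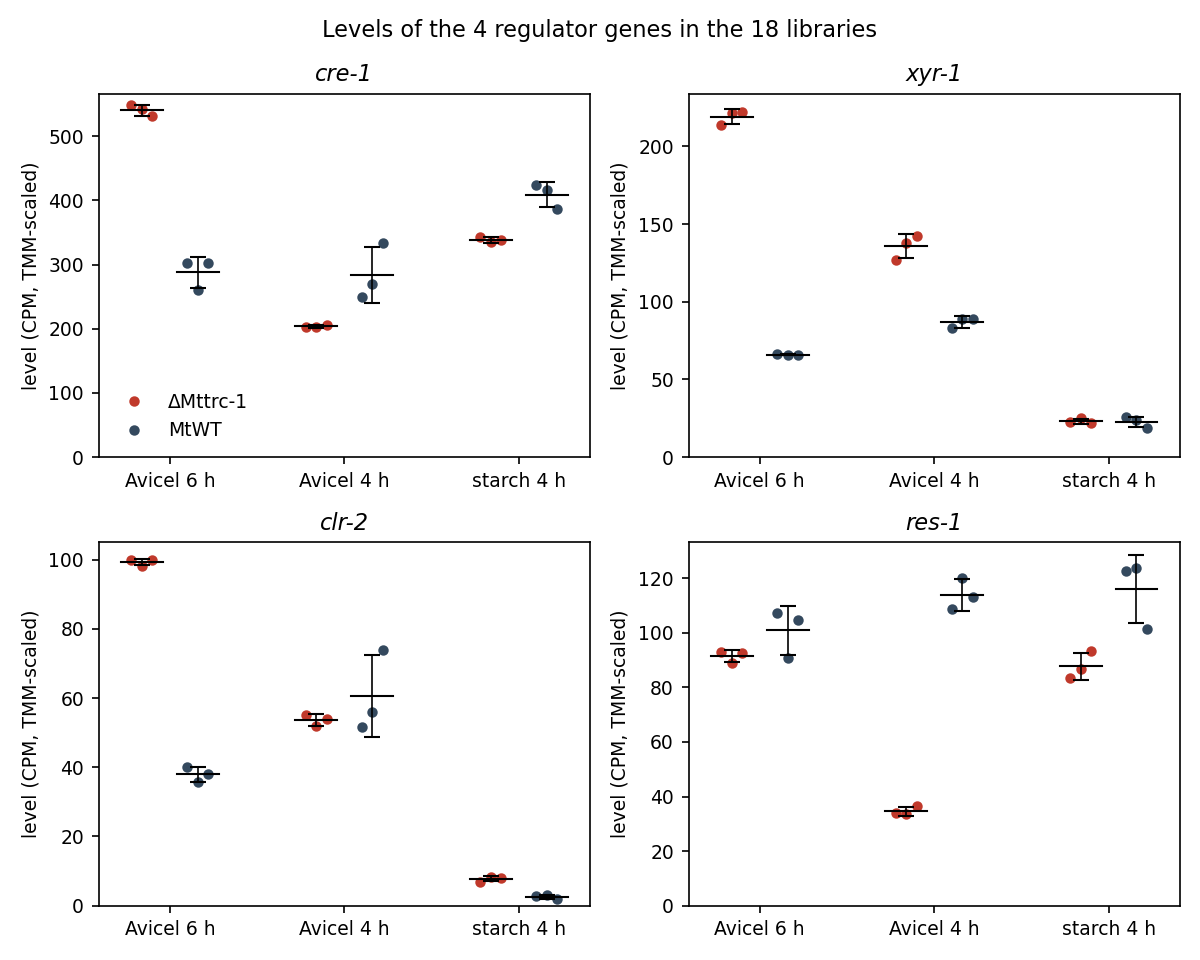
Level of each regulator gene (vertical axis, TMM-scaled CPM, from 0) in every library of the 6 groups; points are libraries, horizontal lines are means of 3 and bars are SDs. The ΔMttrc-1 Avicel 6 h libraries are the highest of all 18 for cre-1, xyr-1 and clr-2, and the ΔMttrc-1 Avicel 4 h libraries are the lowest for cre-1 and res-1.

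On Avicel at 4 h the picture differed from 6 h. res-1 was called lower in the mutant, and the other 3 genes were not called. xyr-1 was above MtWT, cre-1 below it, and clr-2 overlapped.

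The gene res-1 measured 33.8, 33.4 and 36.4 CPM in ΔMttrc-1 on Avicel at 4 h, against 108.7, 120.0 and 113.0 CPM in MtWT. It fell by 1.72 on the log2 scale (SE 0.079, edgeR adjusted p = 4.79e-16), and the highest mutant library was below the lowest MtWT library. Of all tested genes 3.02% had a lower log2 fold change.

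The gene xyr-1 measured 127.0, 137.9 and 142.4 CPM in ΔMttrc-1 at 4 h, against 82.8, 88.9 and 89.1 CPM in MtWT. The groups did not overlap, and the log2 fold change was 0.64 (SE 0.072, 1.56-fold, edgeR adjusted p = 1.86e-08), under the fold threshold.

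The gene cre-1 measured 202.3, 202.6 and 206.3 CPM in ΔMttrc-1 at 4 h, against 249.6, 269.2 and 333.2 CPM in MtWT. The 3 mutant libraries were close together and all below MtWT, with a log2 fold change of -0.48 (SE 0.076, edgeR adjusted p = 1.18e-05). The highest MtWT value belonged to replicate 3, which stands apart, and without it the log2 fold change was -0.35.

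The gene clr-2 measured 55.2, 51.9 and 54.0 CPM in ΔMttrc-1 at 4 h, against 51.7, 56.0 and 74.0 CPM in MtWT. The strains overlapped, and the log2 fold change of -0.17 (95% interval -0.38 to 0.035) did not pass the test (edgeR adjusted p = 0.136). Here too MtWT replicate 3 gave the highest value, and without it the log2 fold change was -0.0027.

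At 4 h on Avicel 1 of the 4 genes was called lower, where 7.42% of all tested genes were. By adjusted p alone 3 of the 4 passed, where 64.3% of all tested genes did.

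On starch at 4 h only clr-2 was called, and it was higher in the mutant at a low level. cre-1 and res-1 were somewhat below MtWT, and xyr-1 overlapped. Starch is the condition in which both activator genes were lowest in both strains.

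The gene clr-2 gave 173, 187 and 170 counts in the ΔMttrc-1 starch libraries, against 69, 69 and 54 counts in MtWT. Scaled, these were 6.93, 8.27 and 8.12 CPM in the mutant and 2.83, 2.95 and 1.91 CPM in MtWT. The groups did not overlap, and clr-2 rose by 1.61 on the log2 scale (SE 0.17, 3.05-fold, edgeR adjusted p = 1.81e-08). With limma on log2(RPKM + 1), where the pseudocount is close to the level itself, the value was 1.08.

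The gene xyr-1 measured 22.7, 24.97 and 21.8 CPM in ΔMttrc-1 on starch, against 25.6, 23.6 and 19.0 CPM in MtWT. The ranges overlapped, with a log2 fold change of 0.031 (95% interval -0.14 to 0.20, edgeR adjusted p = 0.764).

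The gene cre-1 measured 343.6, 334.5 and 338.5 CPM in ΔMttrc-1 on starch, against 423.6, 416.5 and 386.3 CPM in MtWT. Its log2 fold change was -0.27 (SE 0.074, edgeR adjusted p = 0.00384), and the strains did not overlap.

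The gene res-1 measured 83.4, 86.8 and 93.2 CPM in ΔMttrc-1 on starch, against 122.5, 123.9 and 101.6 CPM in MtWT. Its log2 fold change was -0.40 (SE 0.072, edgeR adjusted p = 3.43e-05), again with no overlap but under the fold threshold.

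On starch 1 of the 4 genes was called higher, where 4.12% of all tested genes were, and 3 of the 4 passed the adjusted p alone, where 56.7% of all tested genes did.

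**Figure D2:**
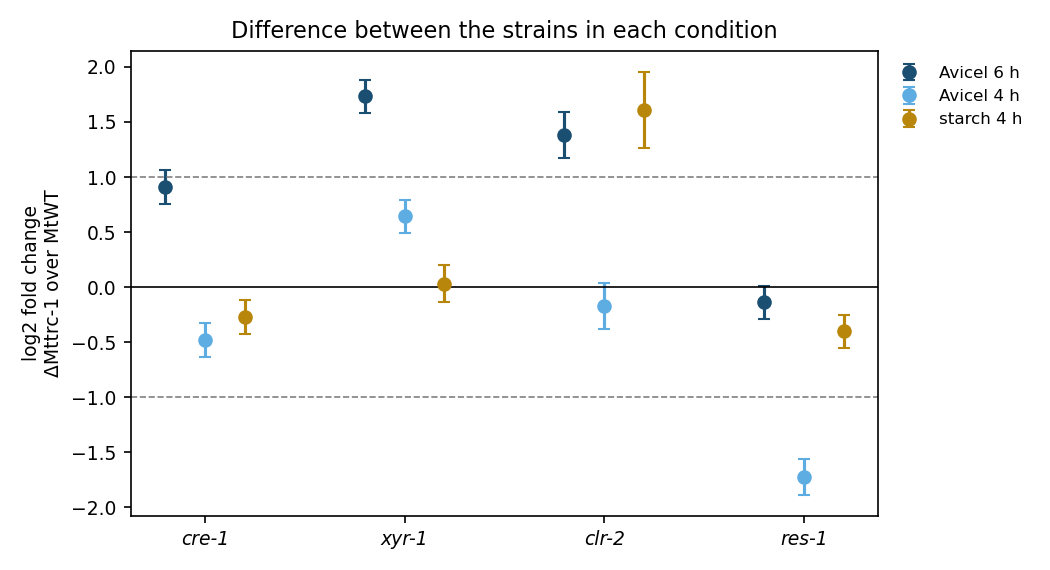
Log2 fold change of ΔMttrc-1 over MtWT (vertical axis) for each regulator gene on Avicel at 6 h, Avicel at 4 h and starch at 4 h; points are edgeR estimates, bars are 95% intervals and dashed lines mark the fold threshold at -1 and 1. For all 4 genes the 6 h Avicel value lies above the 4 h Avicel value, and clr-2 is above 1 on starch and on Avicel at 6 h but not at 4 h.

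Whether the difference between the strains itself changed with time was tested as an interaction. From the 6 h difference the 4 h difference was subtracted, and all 4 genes were called higher, where 10.6% of all tested genes were. The size was 1.58 for res-1 (SE 0.107, edgeR adjusted p = 1.62e-12), 1.56 for clr-2 (SE 0.142, adjusted p = 1.61e-09), 1.39 for cre-1 (SE 0.106, adjusted p = 3.05e-10) and 1.09 for xyr-1 (SE 0.101, adjusted p = 7.03e-10), on the log2 scale. The adjusted p alone was passed by 65.4% of all tested genes. The same quantity is the change over time in ΔMttrc-1 minus that in MtWT. With library totals 19.1% of all tested genes were called higher in this comparison, 7.92% lower, and the median of all tested genes was 0.34. All 4 genes were called higher with that scaling too.

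Within ΔMttrc-1, cre-1 and res-1 were called higher at 6 h than at 4 h on Avicel, where 9.44% of all tested genes were. cre-1 averaged 540.6 ± 8.6 CPM at 6 h and 203.7 ± 2.2 CPM at 4 h (SD, n = 3 each), a rise of 1.41 on the log2 scale (edgeR adjusted p = 4.62e-13). res-1 averaged 91.6 ± 2.2 CPM at 6 h and 34.5 ± 1.6 CPM at 4 h, also a rise of 1.41 (edgeR adjusted p = 1.6e-14). xyr-1 and clr-2 had log2 fold changes of 0.69 (edgeR adjusted p = 1.95e-09) and 0.89 (edgeR adjusted p = 2.93e-08), under the fold threshold. All 4 passed the adjusted p, where 72.7% of all tested genes did. With library totals the median of all tested genes was 0.64 in this comparison and 28.8% were called higher, against 4.25% lower. All 4 regulator genes were then called higher, xyr-1 at 1.29 and clr-2 at 1.48.

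Within MtWT none of the 4 genes was called between 6 h and 4 h on Avicel by edgeR, and DESeq2 and limma called none either. Of all tested genes 5.67% were called lower. Unadjusted and adjusted p below 0.05 were reached by the same 3 genes, where 70.5% of all tested genes reached the adjusted threshold. clr-2 averaged 38.0 ± 2.1 CPM at 6 h and 60.6 ± 11.8 CPM at 4 h, a log2 fold change of -0.67 (edgeR adjusted p = 4.08e-06), and -0.50 without MtWT Avicel 4 h replicate 3. xyr-1 averaged 66.0 ± 0.25 CPM at 6 h and 87.0 ± 3.6 CPM at 4 h, a log2 fold change of -0.40 (edgeR adjusted p = 3.32e-05). For res-1 it was -0.17 (edgeR adjusted p = 0.0348). cre-1 averaged 288.4 ± 24.2 CPM at 6 h and 284.0 ± 43.7 CPM at 4 h, and its log2 fold change of 0.022 had a 95% interval of -0.13 to 0.18 (edgeR adjusted p = 0.807). With library totals 14.4% of all tested genes were called higher and 2.62% lower, with a median of 0.28. The genes that passed the adjusted p were then clr-2 at -0.41 (edgeR adjusted p = 0.000833) and cre-1 at 0.29 (edgeR adjusted p = 0.000868). xyr-1 at -0.13 (edgeR adjusted p = 0.101) and res-1 at 0.091 (edgeR adjusted p = 0.278) no longer passed it.

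The strains' differences on Avicel and on starch at 4 h were compared in the same way, Avicel minus starch. clr-2 and res-1 were called lower, where 10.2% of all tested genes were. clr-2 gave -1.79 (SE 0.195, edgeR adjusted p = 3.49e-08), since it was above MtWT on starch and overlapped MtWT on Avicel. res-1 gave -1.32 (SE 0.106, edgeR adjusted p = 5.43e-11). xyr-1 gave 0.61 (SE 0.109, edgeR adjusted p = 2.78e-05), under the fold threshold. The adjusted p alone was passed by 3 of the 4 genes and by 61.9% of all tested genes. For cre-1 the difference of -0.21 had a 95% interval of -0.43 to 0.011 (edgeR adjusted p = 0.0932).

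Both activator genes were called higher on Avicel than on starch in both strains. In MtWT clr-2 averaged 60.6 ± 11.8 CPM on Avicel at 4 h and 2.56 ± 0.57 CPM on starch at 4 h (SD, n = 3 each), a rise of 4.58 on the log2 scale (SE 0.139, 23.9-fold, edgeR adjusted p = 9.9e-19). Of all tested genes 0.945% had a larger log2 fold change. xyr-1 averaged 87.0 ± 3.6 CPM on Avicel and 22.7 ± 3.4 CPM on starch, a rise of 1.94 (SE 0.078, 3.84-fold, edgeR adjusted p = 1.74e-17). cre-1 averaged 284.0 ± 43.7 CPM on Avicel and 408.8 ± 19.8 CPM on starch, a log2 fold change of -0.52 (edgeR adjusted p = 2.11e-06). res-1 averaged 113.9 ± 5.7 CPM on Avicel and 116.0 ± 12.5 CPM on starch, with overlapping libraries and a log2 fold change of -0.026 (95% interval -0.17 to 0.12, edgeR adjusted p = 0.753). That value depends on the scaling: with library totals it was -0.57 (edgeR adjusted p = 1.4e-07), and by RPKM the libraries did not overlap, at 41.3 to 46.2 on Avicel and 56.0 to 68.5 on starch. The 2 activator genes were thus called higher, where 9.95% of all tested genes were.

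In ΔMttrc-1 the same pair of activator genes was called higher on Avicel at 4 h than on starch, where 8.55% of all tested genes were, and res-1 was called lower, where 8.42% were. clr-2 averaged 53.7 ± 1.7 CPM on Avicel and 7.77 ± 0.73 CPM on starch, a rise of 2.79 on the log2 scale (SE 0.120, 6.93-fold, edgeR adjusted p = 1.01e-15). xyr-1 averaged 135.7 ± 7.9 CPM on Avicel and 23.1 ± 1.6 CPM on starch, a rise of 2.55 (SE 0.078, 5.86-fold, edgeR adjusted p = 5.7e-20). res-1 averaged 34.5 ± 1.6 CPM on Avicel and 87.8 ± 5.0 CPM on starch, and fell by 1.35 on the log2 scale (edgeR adjusted p = 5.09e-14). cre-1 averaged 203.7 ± 2.2 CPM on Avicel and 338.9 ± 4.6 CPM on starch, a log2 fold change of -0.73 (edgeR adjusted p = 2.37e-08). With library totals the median of all tested genes was -0.56 in ΔMttrc-1 and -0.60 in MtWT for Avicel over starch at 4 h. Then 4.51% were called higher and 22.7% lower in ΔMttrc-1, 5.04% and 28.2% in MtWT, and cre-1 was called lower in both strains.

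The 6 h Avicel libraries set against the 4 h starch libraries differ in time as well as in carbon source. In ΔMttrc-1 clr-2 was 12.8-fold higher on Avicel (log2 3.68, edgeR adjusted p = 3.8e-18) and xyr-1 9.46-fold (log2 3.24, edgeR adjusted p = 3.77e-22), where 6.19% of all tested genes were called higher. In MtWT clr-2 was 15.0-fold higher (log2 3.90, edgeR adjusted p = 3.73e-17) and xyr-1 2.91-fold (log2 1.54, edgeR adjusted p = 2.41e-15), where 13.0% were called higher. With library totals 8.96% were called higher in MtWT and 17.9% lower. cre-1 was not called in either strain, at a log2 fold change of 0.67 in ΔMttrc-1 (edgeR adjusted p = 8.38e-08) and -0.50 in MtWT (edgeR adjusted p = 3.29e-06). With TMM scaling res-1 overlapped between the carbon sources, at 0.062 in ΔMttrc-1 (edgeR adjusted p = 0.468) and -0.20 in MtWT (edgeR adjusted p = 0.014). Library totals gave 0.15 (edgeR adjusted p = 0.0762) and -0.48 (edgeR adjusted p = 2.53e-06). By RPKM the libraries did not overlap in either strain. Those values were 51.8 to 54.3 on Avicel and 45.5 to 50.9 on starch in ΔMttrc-1. In MtWT they were 40.9 to 48.9 and 56.0 to 68.5. These comparisons share their starch libraries with those at 4 h.

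The order of the 6 groups differed between the genes. For cre-1 the order of mean CPM was ΔMttrc-1 Avicel 6 h, MtWT starch, ΔMttrc-1 starch, MtWT Avicel 6 h, MtWT Avicel 4 h and ΔMttrc-1 Avicel 4 h, and the MtWT Avicel groups overlapped. For xyr-1 it was ΔMttrc-1 Avicel 6 h, ΔMttrc-1 Avicel 4 h, MtWT Avicel 4 h, MtWT Avicel 6 h and then the starch groups, which overlapped. For clr-2 it was ΔMttrc-1 Avicel 6 h, MtWT Avicel 4 h, ΔMttrc-1 Avicel 4 h, MtWT Avicel 6 h, ΔMttrc-1 starch and MtWT starch, with overlap between the strains on Avicel at 4 h. For res-1 it was MtWT starch, MtWT Avicel 4 h, MtWT Avicel 6 h, ΔMttrc-1 Avicel 6 h, ΔMttrc-1 starch and ΔMttrc-1 Avicel 4 h. Its top pair overlapped, as did MtWT and ΔMttrc-1 on Avicel at 6 h and the mutant's Avicel 6 h and starch groups. By the deposited RPKM values the order was the same for the first 3 genes. For res-1 it became MtWT starch, ΔMttrc-1 Avicel 6 h, ΔMttrc-1 starch, MtWT Avicel 6 h, MtWT Avicel 4 h and ΔMttrc-1 Avicel 4 h.

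Levels of different genes can be compared only per length, and for that the deposited RPKM values, which are scaled to gene length and library size, were used. cre-1 was the highest of the 4 in all 18 libraries, from 107 to 440 RPKM. The usual order was cre-1, res-1, xyr-1, clr-2, which held in 11 libraries: all 3 of ΔMttrc-1 on starch, all 6 of MtWT on Avicel at 6 h and on starch, and 2 of 3 of MtWT on Avicel at 4 h. In MtWT Avicel 4 h replicate 3 clr-2 was above xyr-1. In all 3 ΔMttrc-1 Avicel 4 h libraries res-1 was the lowest, at 13.2, 12.9 and 13.8 RPKM, and the order was cre-1, xyr-1, clr-2, res-1. In all 3 ΔMttrc-1 Avicel 6 h libraries it was cre-1, xyr-1, res-1, clr-2.

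Because cre-1 encodes the repressor and clr-2 and xyr-1 the activators, the RPKM ratio of each activator gene to cre-1 was taken within each library, where scaling between libraries cancels. On Avicel at 6 h clr-2 to cre-1 was 0.117 ± 0.0023 in ΔMttrc-1 and 0.0843 ± 0.0040 in MtWT (SD, n = 3 each). On Avicel at 4 h it was 0.168 ± 0.0055 in ΔMttrc-1 and 0.136 ± 0.0054 in MtWT, and on starch 0.0147 ± 0.0016 in ΔMttrc-1 and 0.00398 ± 0.00072 in MtWT. The ratio was thus higher in the mutant in each condition, by 1.39-fold, 1.24-fold and 3.71-fold. xyr-1 to cre-1 on Avicel at 6 h was 0.2003 ± 0.0071 in ΔMttrc-1 and 0.114 ± 0.0099 in MtWT. At 4 h it was 0.329 ± 0.017 in ΔMttrc-1 and 0.153 ± 0.018 in MtWT, and on starch 0.0338 ± 0.0027 in ΔMttrc-1 and 0.0274 ± 0.0028 in MtWT. These were 1.77-fold, 2.16-fold and 1.24-fold higher in the mutant. Both ratios were lower at 6 h than at 4 h in both strains, and in none of the 18 comparisons of ratios did the libraries overlap. Such separation was common, since among 8406 tested genes above 0 in all libraries the ratio to cre-1 did not overlap for 51.7% to 92.7%, depending on the comparison. The two-sided exact permutation p was 0.1 for each, also after adjustment over the 18, which is the smallest that 3 against 3 libraries can give.

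**Figure D3:**
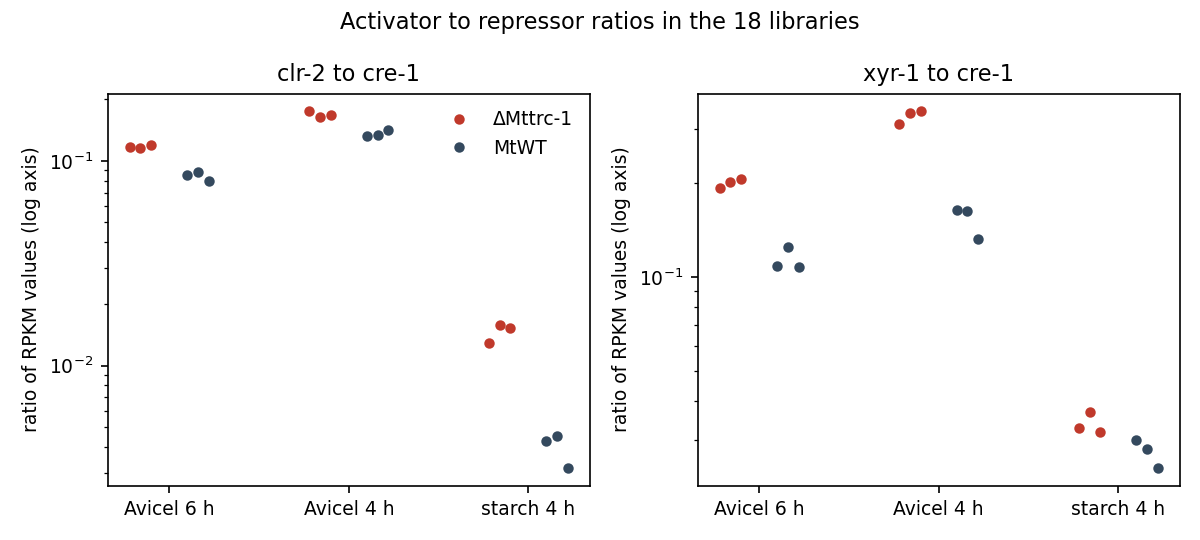
Ratio of RPKM values of clr-2 to cre-1 (left) and xyr-1 to cre-1 (right) in every library (log axis), with ΔMttrc-1 left of MtWT in each condition; points are libraries. Within each condition the 3 ΔMttrc-1 points lie above the 3 MtWT points, and all starch points lie below all Avicel points.

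Enzyme genes of the kind that these regulators act on were followed in lists made from gene descriptions. The descriptions came from the study's RNA-seq results on these libraries, so the direction of these lists is not independent evidence. Of 15 genes described as acting on cellulose, 9 were called lower and 1 higher in ΔMttrc-1 on Avicel at 6 h, with a median log2 fold change of -2.22 beside 0.0072 over all tested genes. In that comparison 12.9% of all tested genes were called lower and 8.55% higher. At 4 h it was again 9 lower and 1 higher of the 15, with a median of -1.49 beside -0.025. There 7.42% of all tested genes were called lower, and 500 of the 8573 were called higher. The cellobiohydrolase gene Mycth_109566 averaged 1415 CPM in ΔMttrc-1 and 8445 CPM in MtWT at 6 h, and fell by 2.58 on the log2 scale (edgeR adjusted p = 8.4e-24). At 4 h it averaged 4828 CPM in ΔMttrc-1 and 19010 CPM in MtWT, and fell by 1.98. The lytic polysaccharide monooxygenase gene Mycth_112089 (family 61A) fell by 4.12 at 6 h and by 2.36 at 4 h. The gene called higher at 6 h, Mycth_2044732 (family 61), averaged only 1.15 CPM in ΔMttrc-1 and 0.542 CPM in MtWT and was named after its values were seen. With library totals the count at 6 h was 9 lower and 2 higher, where 8.21% of all tested genes were called lower and 18% higher.

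Of 9 tested genes described as acting on hemicellulose, which XYR-1 regulates in this fungus, 5 were called lower and 1 higher at 6 h, with a median of -1.12. In that comparison 12.9% of all tested genes were called lower and 8.55% higher. At 4 h 5 were lower and none higher, with a median of -1.38, where 7.42% of all tested genes were called lower. The family 11 xylanase gene Mycth_100068 averaged 15.3 CPM in ΔMttrc-1 and 1449 CPM in MtWT at 6 h, and fell by 6.57 on the log2 scale (edgeR adjusted p = 7.75e-19). The xylanase gene Mycth_112050 fell by 4.23 (edgeR adjusted p = 7.36e-24), to 61.6 CPM in ΔMttrc-1, against 1153 CPM in MtWT. The exception was the family 43 glycoside hydrolase gene Mycth_2064169, at 59.0 CPM in ΔMttrc-1 and 23.0 CPM in MtWT, which rose by 1.35. With library totals 4 of the 9 were lower and 1 higher at 6 h, where 8.21% of all tested genes were called lower and 18% higher. On starch 3 of the 15 cellulose genes and 1 of the 9 hemicellulose genes were called lower, where 3.86% of all tested genes were, and none was called higher.

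**Figure D4:**
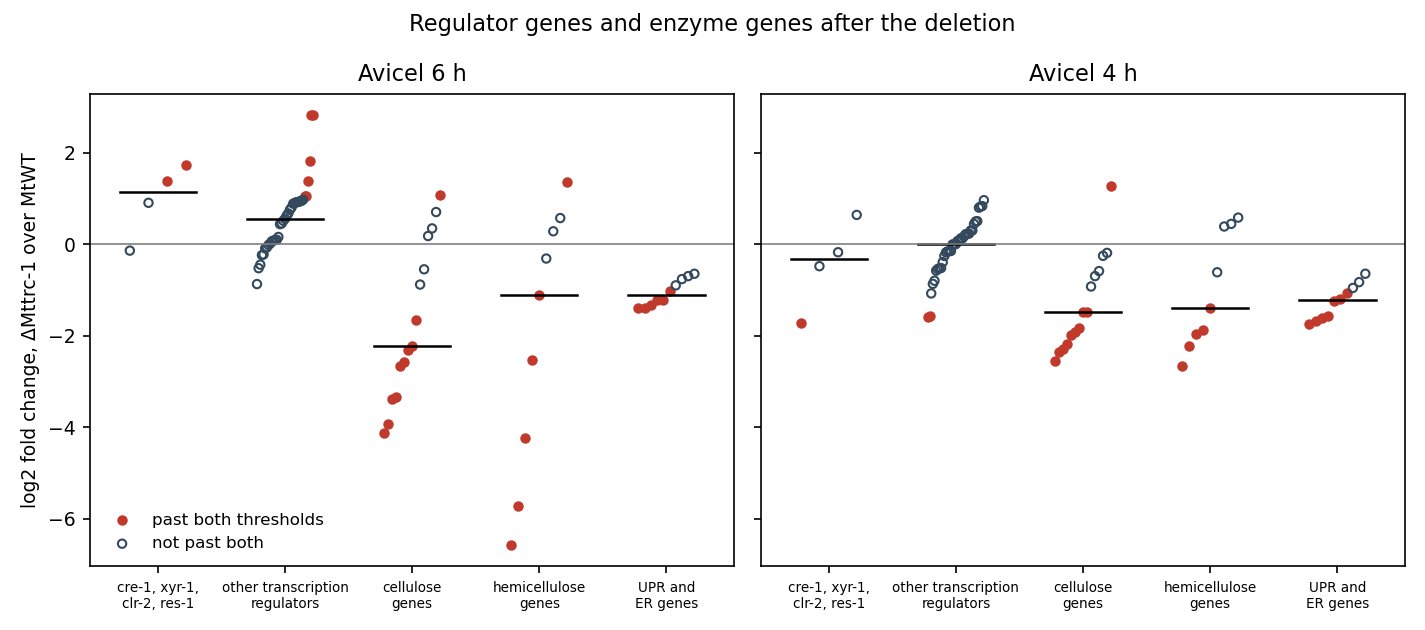
Log2 fold change of ΔMttrc-1 over MtWT (vertical axis) for single genes of each group on Avicel at 6 h (left) and 4 h (right); filled points passed both thresholds, open points did not, and lines are medians. At 6 h the medians are 1.15 for the 4 regulator genes, 0.56 for other transcription regulators, -2.22 for cellulose genes, -1.12 for hemicellulose genes and -1.12 for unfolded protein response and ER genes.

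The ER stress response, to which res-1 belongs in N. crassa, was followed in 10 unfolded protein response (UPR) and ER genes. The study chose them on these libraries, so their direction is not independent evidence. At 6 h 6 of the 10 were called lower and none higher, with a median of -1.12, where 12.9% of all tested genes were called lower. With library totals 2 were lower, with a median of -0.76, where 8.21% of all tested genes were. At 4 h 7 of 10 were called lower, with a median of -1.21, where 7.42% of all tested genes were. On starch none was called, by adjusted p and fold, with a median of 0.38. By adjusted p alone 9 of the 10 passed on starch, all higher in the mutant. Of all tested genes 56.7% passed it there in either direction. The chaperone gene grp78 (Mycth_2315513) fell by 1.40 at 6 h and by 1.67 at 4 h, and pdi1 (Mycth_2296005), for a protein disulfide isomerase, fell by 1.21 at 6 h and by 1.62 at 4 h (edgeR adjusted p at most 1.03e-17). res-1 was called lower at 4 h but overlapped at 6 h with TMM scaling, as given above.

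Against other regulators, 35 tested genes described as transcription regulators gave 6 called higher and none lower at 6 h. In that comparison 8.55% of all tested genes were called higher and 12.9% lower. The median log2 fold change of the 35 was 0.56. At 4 h none was called higher and 2 lower, with a median of 0.0040, where 7.42% of all tested genes were called lower. Without MtWT Avicel 4 h replicate 3 it was 1 higher and 2 lower. On starch 3 were higher and none lower, where 4.12% of all tested genes were called higher. For the 6 h difference minus the 4 h difference 10 of the 35 were called higher and 1 lower, with a median of 0.55, beside 4 of 4 and a median of 1.47 for the regulators followed here. For that quantity 10.6% of all tested genes were called higher. Without MtWT Avicel 4 h replicate 3 it gave 8 of the 35 higher and none lower. With library totals it gave 15 higher and none lower, where 19.1% of all tested genes were called higher. With library totals 16 of the 35 were called higher at 6 h, where 18% of all tested genes were. The most abundant of them, Mycth_115802 (C2H2 zinc finger), averaged 265 CPM in ΔMttrc-1 and 313 CPM in MtWT at 6 h and was not called in any of the 3 conditions. Next, Mycth_117146 was called higher on starch, at 471 CPM in ΔMttrc-1 and 181 CPM in MtWT, a rise of 1.38 (edgeR adjusted p = 2.03e-11).

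Genes with a known role on starch were taken from the study's text, which also names the control genes used here. Actin was the study's own qPCR control, and tef-1 gave the promoter of its overexpression strains. The glucoamylase gene Mycth_72393 averaged 103 CPM in ΔMttrc-1 and 296 CPM in MtWT on starch and fell by 1.53, and the alpha-glucosidase gene Mycth_2303089 fell by 2.51. On Avicel at 6 h Mycth_72393 was called lower, at -1.32, and Mycth_2303089 higher, at 1.32, and at 4 h they were at -0.74 and -0.78, not called. The study picked both on these libraries. The actin gene Mycth_2314852 had log2 fold changes of -0.16, -0.24 and -0.28 between the strains at 6 h, at 4 h and on starch, and tef-1 (Mycth_2298136), for a translation elongation factor, had 0.13, -0.12 and -0.24, with no call in any condition. By adjusted p alone both passed on starch, lower in the mutant, where 56.7% of all tested genes passed. On Avicel at 6 h 1 passed higher and 1 lower, where 74.3% of all tested genes passed. At 4 h 1 passed, lower in the mutant, where 64.3% did.

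The levels of xyr-1 and clr-2 followed each other over the 18 libraries, with a Pearson correlation of 0.941 of log2(CPM + 1). Those of cre-1 and res-1 gave 0.609, and the other pairs lay between -0.391 and -0.026. These libraries form 6 groups of 3 and share carbon source and time, so the values describe the groups and carry no p. Among 6689 tested genes with a mean of at least 10 CPM, clr-2 was the third most like xyr-1. Ahead of it stood Mycth_2312626 (0.979) and the family 43 glycoside hydrolase gene Mycth_2064169 (0.944). The genes most like clr-2 were Mycth_2312181 (0.959), Mycth_2308362 (0.955) and Mycth_5342 (0.948). Most like cre-1 were Mycth_2294033 (0.976), Mycth_2298705 (0.972) and Mycth_2310110 (0.970). Mycth_2294033 averaged 937 CPM in ΔMttrc-1 and 179 CPM in MtWT on Avicel at 6 h, against 45.8 CPM in ΔMttrc-1 and 107 CPM in MtWT at 4 h. Most like res-1 were Mycth_2297938 (0.949), Mycth_2296084 (0.942) and Mycth_2306242 (0.942). The most opposed genes were Mycth_75329 to cre-1 (-0.973), Mycth_2299273 to xyr-1 (-0.966), Mycth_2294340 to clr-2 (-0.951) and Mycth_2081249, described as a helicase, to res-1 (-0.979). Over the 6 group means only 2 of the 12 most alike genes were again among the top 3, Mycth_2312626 for xyr-1 and Mycth_2312181 for clr-2. No other annotated gene of the RefSeq assembly overlaps any of the 4 regulator genes.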

How the data were processed

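Per the file headers, the deposited table held read counts and RPKM values per gene for 18 libraries. The authors aligned reads with TopHat2 2.0.8b and the deposited counts came from HTSeq 0.5.4p2, per the labels. The deposited RPKM values were made by the authors by dividing counts by gene length and library size. The sources used here give neither the genome build nor the strandedness of the counting. In 3 MtWT libraries the description repeats replicate 2's name, and titles were used, which leaves the groups as they are. Replicates were independent cultures.

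Counts were fitted with edgeR 4.0.16 in R 4.3.3 (TMM, filterByExpr, robust quasi-likelihood, 6 groups in 1 fit), which left out 536 genes with 0.00403% of counts. The fit was tested on simulated data. Alternatives were library totals, RLE, DESeq2 1.42.0, no filter, only the compared groups, limma 3.58.1 on log2(RPKM + 1) and log2(RPKM + 0.1) at a mean RPKM of at least 1, a replicate block, and leaving out each library. After the data were seen, counts of list genes were repeated with library totals, RLE and without MtWT Avicel 4 h replicate 3, and the ratio to cre-1 was taken for all genes. The study used DESeq2, which was kept as an alternative.

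The 4 genes, the lists and the tests were chosen with earlier results of these data known. Lists by description came from 1666 genes described in the study's supplementary RNA-seq results on these same libraries, and are incomplete. How those genes were chosen was not checked, so the direction of the enzyme and regulator lists is not independent evidence. Named genes were the 4 regulators, the 2 of each list with the highest mean CPM, and for each regulator the 3 tested genes with the highest correlation and the 1 with the lowest. Of 9109 genes 9086 matched a locus tag of RefSeq ASM22609v1, used for names and neighbours only.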

Additional observations from a re-analysis of the deposited data

Results flagged for a closer look

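The difference between ΔMttrc-1 and MtWT was not the same in all conditions, by a test of that difference in edgeR. Between 6 h and 4 h on Avicel it differed for all 4 genes: by 1.58 for res-1 (adjusted p = 1.62e-12), 1.56 for clr-2 (adjusted p = 1.61e-09), 1.39 for cre-1 (adjusted p = 3.05e-10) and 1.09 for xyr-1 (adjusted p = 7.03e-10), on the log2 scale. All 4 were called higher, where 10.6% of all tested genes were, and 65.4% of all tested genes passed the adjusted p alone. Between Avicel and starch at 4 h it differed by -1.79 for clr-2 (adjusted p = 3.49e-08), -1.32 for res-1 (adjusted p = 5.43e-11) and 0.61 for xyr-1 (adjusted p = 2.78e-05), the last under the fold threshold, where 61.9% of all tested genes passed the adjusted p alone. Both comparisons share the 4 h Avicel libraries of both strains.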

How the results depend on the processing

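Of 664 repeats of the 44 results of the 4 genes, 632 kept their direction and their side of the threshold. The other changes came mostly with scaling to library totals, which the RPKM values also carry. On Avicel at 6 h cre-1 was called higher in ΔMttrc-1 at 1.26 with library totals, 1.26 with limma on log2(RPKM + 1) and 1.27 with a pseudocount of 0.1, and res-1 turned to 0.218, 0.216 and 0.220. In the same order of settings, cre-1 on Avicel against starch at 4 h was called lower at -1.24, -1.23 and -1.24 in ΔMttrc-1 and at -1.07, -1.07 and -1.08 in MtWT. For Avicel 6 h against 4 h in ΔMttrc-1, xyr-1 was called higher at 1.29, 1.26 and 1.28, and clr-2 at 1.48, 1.43 and 1.48. In MtWT res-1 turned to 0.0907, 0.0861 and 0.0878. With library totals the number of genes called was 2329 in ΔMttrc-1 and 2846 in MtWT for Avicel against starch at 4 h, in place of 1455 and 1693, and 2832 in ΔMttrc-1 for 6 h against 4 h, in place of 1628. With limma on log2(RPKM + 0.1) it was 2631 in MtWT for Avicel against starch and 2602 in ΔMttrc-1 for 6 h against 4 h. The value of res-1 in MtWT, Avicel against starch at 4 h, turned to 0.00479 with RLE and 0.00505 with DESeq2, but was -0.568 with library totals (edgeR adjusted p = 1.4e-07) and -0.554 and -0.563 with limma. Leaving out 1 library in turn, it ran from -0.113 to 0.0246 and turned without MtWT Avicel 4 h replicate 1 or MtWT starch replicate 1 or 2. In the same way xyr-1 on starch ran from -0.0862 to 0.125 between the strains and turned without ΔMttrc-1 replicate 2 or MtWT replicate 3. cre-1 in MtWT, 6 h against 4 h, ran from -0.0648 to 0.151 and turned without Avicel 4 h replicate 1 or 2 or Avicel 6 h replicate 1 or 3. None of these 3 values was called in any of those fits. Deviations of same-numbered libraries from their group means correlated at -0.350 to 0.186. Differently numbered libraries were not compared, so whether the replicate numbers pair the libraries was not tested. With the replicate block 1842 genes were called between the strains on Avicel at 6 h, in place of 1843, and no call of the 4 genes changed. Counts of clr-2 on starch were low, at 54 to 187 a library, and its CV between MtWT libraries there was 22.1%.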
